A study of Mus musculus with 6 samples.

Results

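The enzymes that charge folate with single-carbon units, and the purine and pyrimidine synthesis enzymes that are fed by them or share their end use, were read in mouse intestinal crypts with and without loss of imprinting of Igf2. The 10 listed enzymes were Mthfd1, Mthfd1l, Mthfd2, Shmt1, Shmt2, Gart, Paics, Atic, Cad and Umps. A gene entered when a probe's accession was paired with its symbol, which gave 8 probes for 7 genes out of 37940 genes and unnamed probes on the array. No probe was paired with Shmt1, Shmt2 or Cad, so these 3 were not analysed here. Mthfd1l was chosen by a measured value, its low p between the groups in an earlier analysis of the same arrays, and the other enzymes were listed as its pathways. Its difference between the groups is therefore given as a description, without a test, and supports nothing else.

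Crypts are pits between the intestinal villi, where the dividing cells of the epithelium lie. Total RNA came from crypts cut by laser microdissection from mid small intestine of 6 C57BL/6 mice aged 120 days, with 1 array per mouse. The 3 LOI(+) mice had inherited from an H19+/- mother a deletion of H19 and of its upstream differentially methylated region, after which the maternal copy of Igf2, normally silent, is active, per the series' design. The 3 LOI(-) mice were wild type and came from the same kind of cross, H19+/- females with wild-type males. The deletion is carried in the germline and so is not limited to crypt cells, and the RNA of each mouse was drawn from many pooled crypts. Of the 6 mice, 4 were labelled male, and LOI(-) 3 and LOI(+) 2 carried no sex label. In such bulk RNA, fewer cells of a type and less RNA per cell cannot be told apart. Mouse RNA was labelled with Cy3 and hybridised against Cy5-labelled Universal Mouse Reference RNA, which pools cultured lines of many tissues. With no dye swap, a dye effect and a difference between crypt and reference cannot be told apart, while a dye effect common to all arrays drops out between the groups.

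Tetrahydrofolate carries single-carbon units at several oxidation states. Serine supplies most of them, and enzymes of the cytosol and of the mitochondrion interconvert them, exchanging formate and serine across the mitochondrial membranes. The 10-formyl form donates carbons to the purine ring, in steps carried out by Gart and Atic, and the methylene form is used to make thymidylate. The pyrimidine ring takes its carbon from bicarbonate and aspartate and does not need folate. Dividing cells draw on these routes for DNA and RNA.

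Each probe is a 60-base oligonucleotide, and its first 30 bases are shown here in lower case, since each value below is the signal of 1 such stretch and since the 2 Atic probes read different ones.
Mthfd1 probe: tgaggataaaatcaggattattgcacagag
Mthfd1l probe: gcttatactttagaaagtttattttatggg
Mthfd2 probe: gaggcctatttgtttttgaaaaacaaaaca
Gart probe: cgagctggtattcccaccagggtaattaat
Paics probe: gctctcttgcagacgacctgaatttgcttc
Atic brighter probe: tgctgttggggttccactcagtgaggacga
Atic dimmer probe: tttctagcctaagacaccttatgtgaggct
Umps probe: agcactgtgaatttgtcattggcttcattt
Read 5′ to 3′, the whole Mthfd1l probe and the whole dimmer Atic probe held a stop codon in all 3 frames, whereas the other 6 probes had at least 1 frame without a stop. The Mthfd1l probe also had the lowest share of G and C, 35.0% of its bases, against 55.0% in the brighter Atic probe. On all 6 arrays the Cy3 signal of all 8 probes exceeded what 95% of negative control features gave, called the negative control level from here, so none was lost to a filter on low values. Across the arrays the median Cy3 signal ran from 552 to 603 and the median local background from 387 to 391. Of the 14 epithelial markers, 12 had a probe and all 12 were above the negative control level on every array. So were all 10 measured smooth muscle and fibroblast markers and all 11 B, plasma, T and myeloid cell markers. Passing this level therefore does not tell the tissue. Among the 12, the mean log2 ratio of crypt over reference in LOI(-) was highest for Vil1, which builds the brush border, at 5.85. It was 0.026 for Cdx2 and -0.19 for Hnf4a, so not all 12 stood above the reference. Igf2 itself had nearly equal means, 0.092 and 0.089 in LOI(-) and LOI(+), and no probe was paired with H19, so these arrays do not check the group labels.

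Differences are LOI(+) minus LOI(-) in the log2 ratio of Cy3 over Cy5, with the standard error (SE) of the limma fit over all 37940 rows and p-values adjusted by Benjamini-Hochberg over the same rows. In that fit 0 rows passed an adjusted p of 0.05, which is 0% of those tested, and 2335 rows, 6.15%, had an unadjusted p under 0.05, with 3.93% of all rows higher and 2.22% lower in LOI(+). Of the 7 measured enzymes, 0 passed the adjusted threshold and 1 had an unadjusted p under 0.05. That enzyme is Mthfd1l, which was chosen for it, and nothing is read from the count. Among the other 6, 0 had an unadjusted p under 0.05, 4 had a higher mean in LOI(+) and 2 a lower one, beside 51.3% of all rows with a higher mean. Their median difference was 0.072, against 0.0029 over all rows, and over all 7 it was 0.14. The median of the 7, Mthfd1l included, rested on LOI(-) 1, without which it was 0.019, and it was 0.22 without LOI(-) 3. Without LOI(-) 1 the other 6 had differences of both signs. They were 0.22 for Mthfd1, 0.019 for Mthfd2, 0.062 for Gart, -0.089 for Paics, -0.32 for Atic and -0.038 for Umps. The higher median of the 6 therefore also rested on that array. The median SE of a row was 0.077, and 3 mice per group limit the precision of each value.

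**Figure D1:**
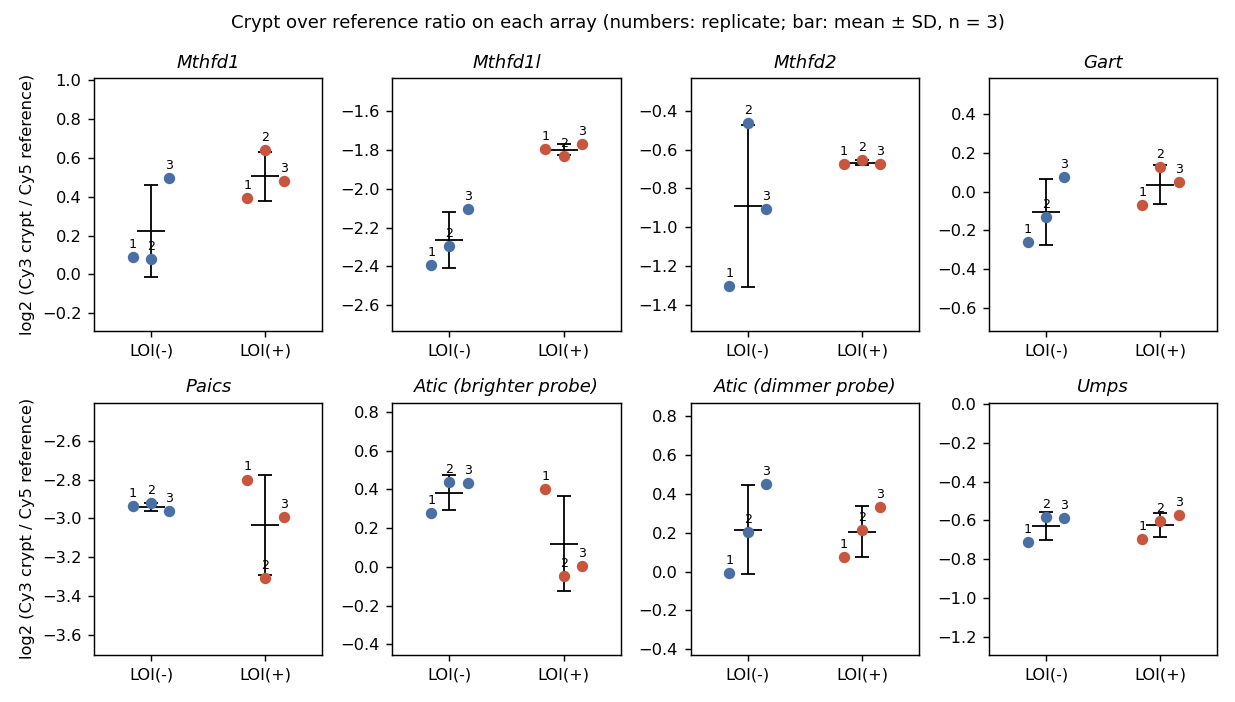
Log2 ratio of Cy3 crypt signal over Cy5 reference signal on each array for the 8 probes of the 7 measured enzymes, with replicate numbers beside the points and bars for the mean and SD of 3 mice. Every panel spans the same range of log2 units around its own centre. The groups lie apart for Mthfd1l, where LOI(-) runs from -2.39 to -2.10 and LOI(+) from -1.83 to -1.77, and overlap in the other panels.

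The mitochondrial enzymes come first. Mthfd1l, at chr10:3972892-4167081 on the plus strand of GRCm38.p6, is the mitochondrial 10-formyltetrahydrofolate synthetase, which releases formate for use in the cytosol. Its log2 ratio was -2.39, -2.30 and -2.10 in the LOI(-) mice and -1.79, -1.83 and -1.77 in the LOI(+) mice. All LOI(+) values lay above all LOI(-) values, which held for 6.37% of all rows, and the spread was narrower in LOI(+). The group means were -2.26 ± 0.15 (SD, n = 3) and -1.80 ± 0.029 (SD, n = 3), a difference of 0.47, or a fold of 1.38. Without background correction the difference was 0.25. Seen against the reference pool, the crypt signal was 4.80-fold lower in LOI(-) and 3.48-fold lower in LOI(+). The channels were also read separately, from the signals processed by the scanner software. The Cy3 signal of Mthfd1l differed by 0.51 on the log2 scale and the Cy5 signal, which came from the same reference RNA on every array, by 0.039. For the other enzyme probes this Cy5 difference ran from -0.0019 for Paics to 0.27 for Umps. The split of Mthfd1l is a description too.

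Mthfd2, at chr6:83305704-83326011 on the minus strand, is the mitochondrial methylenetetrahydrofolate dehydrogenase and cyclohydrolase, which acts just before Mthfd1l and is known for its low level in most resting adult tissue. Its log2 ratio was -1.30, -0.46 and -0.91 in LOI(-) and -0.67, -0.65 and -0.67 in LOI(+). The LOI(-) mice spanned all the LOI(+) values, and the LOI(+) mice were nearly equal. The SD was 0.42 in LOI(-) and 0.011 in LOI(+), both n = 3. The difference was 0.22 ± 0.19 (SE), with an adjusted p of 0.859 (limma); the 95% interval ran from -0.22 to 0.67. It moved to 0.019 without LOI(-) 1 and to 0.44 without LOI(-) 2.

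In the cytosol, Mthfd1 joins the synthetase, cyclohydrolase and dehydrogenase steps in a single protein and makes the 10-formyl folate used for purines. The gene lies at chr12:76254406-76319820 on the plus strand. The Mthfd1 log2 ratio was 0.092, 0.080 and 0.50 in LOI(-) and 0.40, 0.64 and 0.48 in LOI(+). LOI(-) 1 and LOI(-) 2 were below every LOI(+) mouse, and LOI(-) 3 was within the LOI(+) range. The difference was 0.28 ± 0.13 (SE), with an adjusted p of 0.819 (limma); the 95% interval ran from -0.019 to 0.58. It ran from 0.21 without LOI(-) 2 to 0.42 without LOI(-) 3, and it was 0.14 without background correction. After correction and normalization the log2 ratio of Mthfd1 was positive on all 6 arrays, unlike that of its mitochondrial relatives, which was negative on all 6. Before these steps the Mthfd1 mean signal was lower in Cy3 than in Cy5 on every array but LOI(+) 2. It was 597 against 658 on LOI(-) 1 and 678 against 662 on LOI(+) 2. For Mthfd1 the Cy3 signal was low, between 554 and 678, where the negative control level was 439 to 449.

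The purine ring is built on phosphoribosyl pyrophosphate by a chain of enzymes, of which Gart, Paics and Atic each carry out several steps. Gart carries the glycinamide ribonucleotide synthetase, formyltransferase and aminoimidazole ribonucleotide synthetase steps, and lies at chr16:91621395-91646972 on the minus strand. Its log2 ratio was -0.26, -0.13 and 0.076 in LOI(-) and -0.071, 0.13 and 0.049 in LOI(+). The groups overlapped, with LOI(-) 3 above all but LOI(+) 2. The Gart difference was 0.14 ± 0.099 (SE), with a limma adjusted p of 0.841, and it was 0.062 without LOI(-) 1 and 0.23 without LOI(-) 3. The Cy3 signal of Gart was low, between 567 and 642.

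Paics, at chr5:76951302-76967509 on the plus strand, carries the carboxylase and the succinocarboxamide synthetase steps. Its log2 ratio was -2.94, -2.92 and -2.96 in LOI(-) and -2.80, -3.31 and -2.99 in LOI(+). The LOI(-) mice were nearly equal and lay inside the LOI(+) range, which LOI(+) 1 and LOI(+) 2 set. The difference was -0.091 ± 0.12 (SE), with an adjusted p of 0.910 in limma. Its sign was not stable, since it was 0.046 without LOI(+) 2 and 0.012 with each array centred on its median in place of loess normalization, and it was -0.31 with scale normalization between arrays. The Paics signal of the crypts was 7.68-fold below the reference in LOI(-) and 8.18-fold below it in LOI(+). The reference side was near the top of the scanner's range, with a Cy5 signal between 54475 and 62857 where the brightest feature of an array stood at 65518. On 4 of the 6 arrays 6.90% to 23.3% of the pixels of that feature were saturated in Cy5, and on LOI(+) 1 and LOI(+) 2 none were. The part of this in the Paics values was not tested.

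Atic, at chr1:71557156-71579403 on the plus strand, carries the last formyl transfer, fed by 10-formyl folate, and the ring closure to inosine monophosphate. On the brighter probe its log2 ratio was 0.28, 0.44 and 0.43 in LOI(-) and 0.40, -0.045 and 0.0024 in LOI(+). LOI(+) 2 and LOI(+) 3 were below every LOI(-) mouse, and LOI(+) 1 was among them. The difference of the brighter probe was -0.26 ± 0.12 (SE), with an adjusted p of 0.819 (limma); the 95% interval ran from -0.56 to 0.032. Without LOI(+) 1 it was -0.40. The dimmer probe gave -0.0095, 0.20 and 0.45 in LOI(-) and 0.073, 0.21 and 0.33 in LOI(+), a difference of -0.0087 ± 0.13 (SE). There LOI(-) 1 was the lowest array and LOI(-) 3 the highest, an order that the brighter probe did not show. The Cy3 signal of the dimmer probe, 540 to 579, was close to the negative controls, and with the mean of both probes the Atic difference was -0.14.

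Umps, at chr16:33954782-33967038 on the minus strand, was the only pyrimidine synthesis enzyme of the list with a probe. It joins orotate phosphoribosyltransferase and orotidylate decarboxylase, the last steps to uridine monophosphate. Its log2 ratio was -0.71, -0.58 and -0.59 in LOI(-) and -0.69, -0.61 and -0.57 in LOI(+). The groups covered nearly the same range. The Umps difference was 0.0043 ± 0.065 (SE), with an adjusted p of 0.993 (limma); the 95% interval ran from -0.15 to 0.16, and its sign turned, at -0.037, with scale normalization between arrays. Taken alone, the Cy3 and the Cy5 signals of Umps were both higher on the LOI(+) arrays, by 0.27 and 0.27 on the log2 scale, and the ratio removed this.

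**Figure D2:**
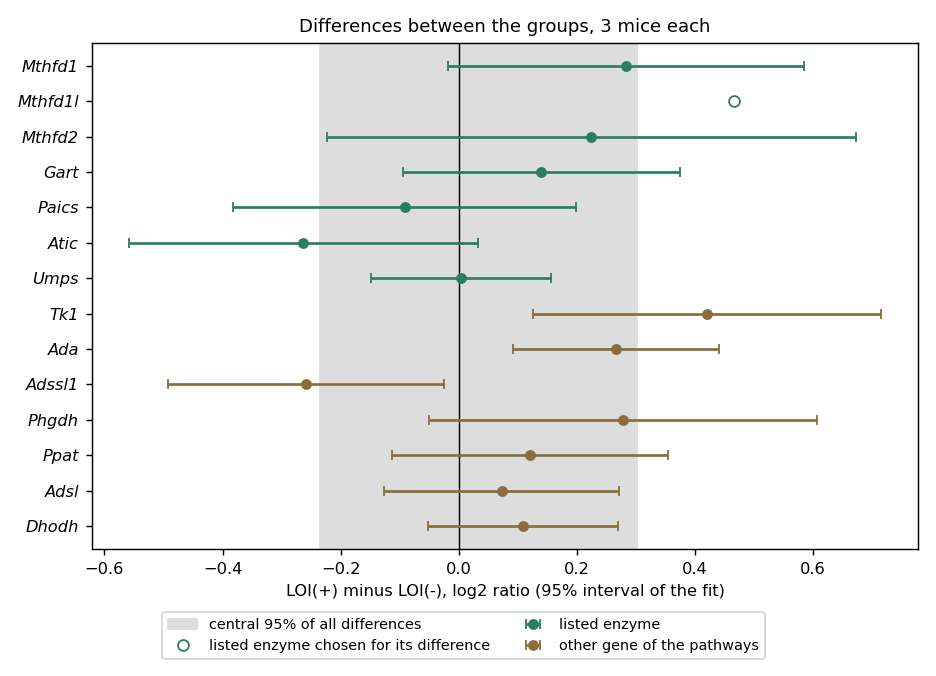
Difference between LOI(+) and LOI(-) in the log2 ratio for the 7 measured enzymes and for 7 other genes of the pathways, with 95% intervals of the limma fit over 3 mice per group. Tk1, Ada and Adssl1 are shown because their unadjusted p was under 0.05 in this same limma fit, so their intervals are descriptions and no test. The grey band holds the central 95% of the differences of all 37940 rows, from -0.23 to 0.30, and the open point of Mthfd1l carries no interval because the gene was chosen for its difference.

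The arrays were then compared across the enzymes, with each enzyme's log2 ratio taken as the deviation from its own mean over the 6 arrays. The median deviation was -0.23, 0.042 and 0.037 in LOI(-) and 0.11, 0.12 and 0.084 in LOI(+). LOI(-) 1 stood lowest, and it was the lowest array for 4 of the 7 enzymes. With Mthfd1l left out the medians were -0.16, 0.053 and 0.074 in LOI(-) and 0.069, 0.073 and 0.068 in LOI(+), so that only LOI(-) 1 stood away from the other 5 arrays. LOI(+) 2 was the highest array for 2 enzymes, Mthfd1 and Gart, and the lowest for 2, Paics and Atic. The enzymes thus did not share an order of arrays.

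**Figure D3:**
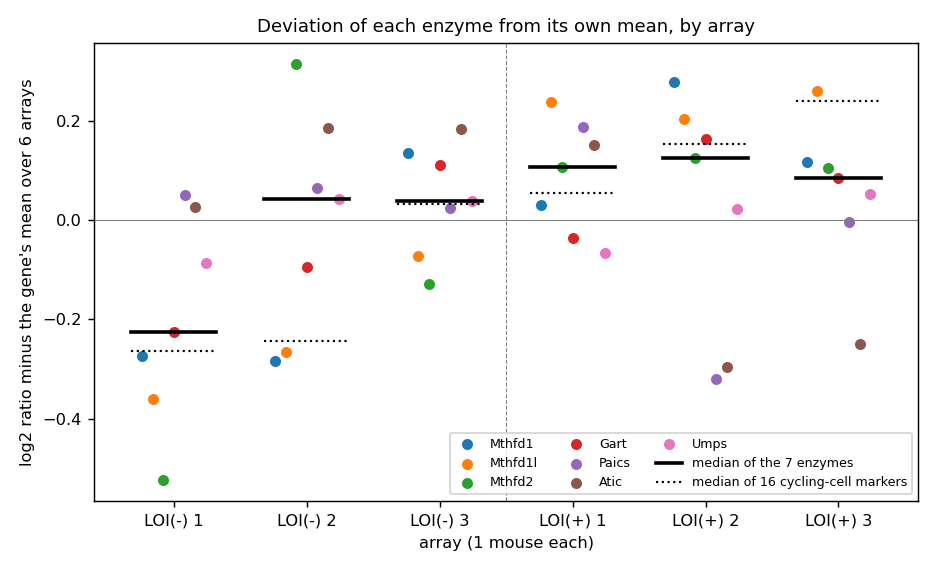
Deviation of the log2 ratio of each enzyme from its own mean over the 6 arrays, with the median of the 7 enzymes as a solid bar and the median of 16 cycling-cell markers as a dotted bar on each array. The 2 medians have the same sign on 5 of the 6 arrays and opposite signs on LOI(-) 2, at -0.24 for the cycling-cell markers and 0.042 for the enzymes, and on LOI(+) 2 Paics and Atic lie at -0.32 and -0.30.

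The mean log2 ratios of some lists of cell type markers also lay apart between the groups. Among single rows, the groups did not overlap in 11.3% of all rows, and 0 passed an adjusted p of 0.05 in limma. No such share was worked out for list means. Of 16 measured markers of cycling cells, genes of replication and mitosis, 15 had means that were higher in LOI(+), beside 51.3% of all rows. The mean log2 ratio of that list ran from -0.81 to -0.56 in LOI(-) and from -0.51 to -0.32 in LOI(+). The list mean of 12 epithelial markers ran from 2.51 to 2.70 in LOI(-) and from 2.40 to 2.48 in LOI(+), and it stayed apart without Krt19, which was saturated. The cycling list held no saturated gene and none of another list. As listed, 3 more lists also lay apart. The means of 7 villus enterocyte markers ran from 2.77 to 3.185 in LOI(-) and from 3.186 to 3.30 in LOI(+), so they barely parted. Those of 7 Paneth cell markers ran from 3.37 to 3.48 and from 3.09 to 3.30. Those of 11 B, plasma, T and myeloid cell markers ran from 0.14 to 0.19 and from 0.0086 to 0.13. After these values were seen, the lists were taken again without saturated genes and without genes of another list, and these 3 then overlapped. The villus means without Ada ran from 3.30 to 3.80 and from 3.77 to 3.89. The Paneth means without Defa5 and Itln1, whose Cy3 signal was saturated on all 6 arrays, ran from 2.45 to 3.09 and from 2.31 to 2.76. The immune means without Lyz2, which the Paneth list also holds, ran from -0.28 to -0.22 and from -0.34 to -0.24. The lists of crypt base stem cells, goblet cells, enteroendocrine and tuft cells, smooth muscle and fibroblasts, and endothelium, neurons and glia overlapped as listed. The part of the cycling and epithelial shifts in the enzyme values was not tested.

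The rest of the folate and nucleotide pathways was read from 79 gene symbols, older names included, of which 53 had a probe. Of these 53 genes, 34 had a higher mean in LOI(+) (64.2%, against 51.3% of all rows) and 19 a lower one, with a median difference of 0.045. At an unadjusted p under 0.05 there were 3 higher and 1 lower (7.55%, against 6.15% of all rows), and 0 passed the adjusted threshold in limma. With 1 array left out the 4 became 3, without LOI(+) 3, to 9, without LOI(+) 1, where the count over all rows also went from 2335 to 3345. They were 8 without LOI(-) 3, beside 2401 of all rows, and 7 with the replicate number as a block, beside 2461. Without LOI(+) 3 the count over all rows was 2257. Among the groups, folate carriers and folate cycle genes had 8 of 14 higher, serine synthesis and glycine cleavage 3 of 5, the other purine synthesis genes 6 of 9, purine salvage and breakdown 6 of 9, the other pyrimidine synthesis genes 5 of 7, and pyrimidine salvage and breakdown 6 of 9. All 53 were measured on every array, and 52 were above the negative control level on every array.

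Tk1, Ada and Adssl1 are named because their unadjusted p in limma was under 0.05, so their differences are given as descriptions. Tk1, the thymidine kinase of the salvage route, whose expression peaks in S phase, had 0.12, -0.24 and 0.26 in LOI(-) and 0.49, 0.41 and 0.50 in LOI(+). The groups did not overlap, which held for 5 of the 53 genes and for 11.3% of all rows, and the LOI(+) mice were close together. Its difference was 0.42 ± 0.12 (SE), with a limma adjusted p of 0.801, and 0.28 without LOI(-) 2.

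Ada, adenosine deaminase, a purine salvage enzyme that is also a marker of villus enterocytes, had -0.42, -0.53 and -0.50 in LOI(-) and -0.32, -0.099 and -0.23 in LOI(+) on its brighter probe. The difference was 0.27 ± 0.074 (SE), with a limma adjusted p of 0.801, and its other probe gave 0.12. Without background correction the brighter probe gave 0.12, and its Cy3 signal was low, between 571 and 689. In the mice labelled male the Ada difference was 0.20, with an unadjusted p of 0.0691 in limma. Adssl1, the muscle-type adenylosuccinate synthase, had -2.91, -2.76 and -2.97 in LOI(-) and -3.01, -3.09 and -3.32 in LOI(+), all below every LOI(-) mouse. Its difference was -0.26 ± 0.099 (SE), with 0.803 as adjusted p in limma. The Adssl1 difference was -0.17 without LOI(+) 3 and -0.46 with scale normalization. Its unadjusted p in limma was 0.0998 without LOI(+) 3, 0.110 without LOI(-) 2 and 0.0652 without LOI(-) 1. Its Cy3 signal was low, between 498 and 557.

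Phgdh, the first enzyme of serine synthesis from glucose, had log2 ratios of -3.66, -3.39 and -3.37 in LOI(-) and -3.44, -3.21 and -2.94 in LOI(+). LOI(+) 1 fell among the LOI(-) mice, and the difference was 0.28 ± 0.14 (SE), with an adjusted p of 0.819 in limma. The Phgdh difference ran from 0.15 without LOI(+) 3 to 0.40 without LOI(+) 1, and it was 0.054 with scale normalization. Ppat, the amidotransferase that commits phosphoribosyl pyrophosphate to purines, had -2.21, -1.90 and -2.02 in LOI(-) and -2.06, -1.86 and -1.86 in LOI(+). It differed by 0.12 ± 0.099 (SE), and its sign turned, at -0.010, with scale normalization. The Cy3 signal of Ppat was low, between 484 and 515. Adsl, which acts after Paics and again on the way to AMP, differed by 0.072 ± 0.084 (SE). Dhodh, the mitochondrial enzyme that acts just before Umps, differed by 0.11 ± 0.068 (SE). The adjusted p of these 3 was 0.856, 0.896 and 0.832 in limma, and the groups overlapped for each. No probe was paired with Tyms or Pfas.

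Paics and Ppat are neighbours that run in opposite directions, and in the RefSeq gene models of GRCm38.p6 they share 277 bases. Their differences were -0.091 and 0.12, neither past the test, and both signs turned under other normalizations as given above. Promoter windows, from 250 bases before to 50 after each start site, were found in RefSeq for all 10 enzymes. They were searched on both strands for 5 motifs. The E-box CACGTG, bound by MYC and USF proteins, was in 2 of 10 windows, Paics and Atic, against 7.15% of 32851 windows. The GC box GGGCGG was in 8 of 10, against 35.7%, and the CCAAT box in 6 of 10, against 37.4%. TATAAA was in 1 of 10, Umps, against 13.6%, and the E2F motif TTTNGCGC in 0 of 10, against 1.38%. No hit of a motif shared bases with a hit of another motif. These are matches of letters, not measured binding.

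The E-box is shown where it was found, in Paics and Atic, so that its place before each start can be seen. The capitals mark CACGTG, which starts 7 bases before the start site of Atic and 203 bases before that of Paics. The Atic stretch is chr1:71556906-71557155 and the Paics stretch, limited to 30 bases around the motif, is chr5:76951087-76951116, both on the plus strand of GRCm38.p6 from RefSeq.
Atic, 250 bases before the start: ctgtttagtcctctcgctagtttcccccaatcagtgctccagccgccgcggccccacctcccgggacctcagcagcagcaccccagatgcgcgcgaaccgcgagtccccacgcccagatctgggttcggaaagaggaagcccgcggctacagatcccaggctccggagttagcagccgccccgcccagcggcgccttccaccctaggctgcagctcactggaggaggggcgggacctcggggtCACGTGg
Paics, around the E-box: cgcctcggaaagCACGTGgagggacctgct

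**Figure D4:**
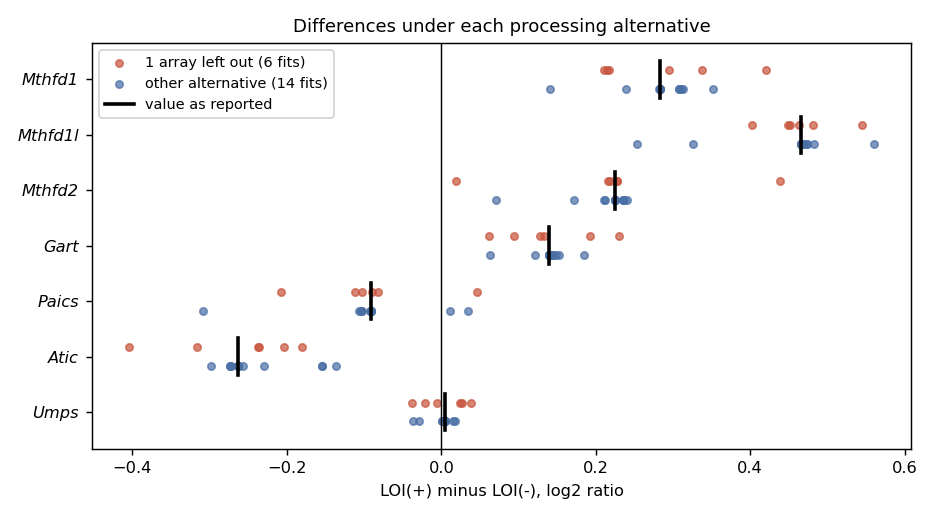
Difference between LOI(+) and LOI(-) in the log2 ratio of each enzyme as reported (black bars), with 1 array left out (6 fits) and under the 14 other processing alternatives. Mthfd1l runs from 0.25 to 0.56, Mthfd1, Mthfd2 and Gart stay above 0, Atic stays below 0, and Paics and Umps fall on both sides. Aquantile normalization, the filters on low and saturated probes, the unmoderated test and the block leave each difference as reported. The mean of all probes does so for every enzyme but Atic. Their points therefore say nothing on stability.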

How the data were processed

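Raw feature intensity in Cy3 and Cy5 (mean signal and local background) and a processed intensity, background-subtracted and dye-normalized, are the authors' deposited Agilent Feature Extraction output (A.7.5.1), per the file headers. Their deposited log10 table was used as an alternative. Its columns, each with a median of 2.90, correlated with the log10 ratio of crypt to reference plus the mean log10 reference signal of each feature (r from 0.998). They also correlated with the log10 Cy3 signal alone (r from 0.994). The positive sign gave the direction, while a correlation cannot settle scale, which was taken as log10. Accessions in the probes' name column were looked up in RefSeq genes (GRCm38.p6), also among synonyms, which named 15406 of 41006 probes and left 25600 unnamed here.

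Mean signals were corrected with normexp (offset 50) and loess in limma 3.58.1 (R 4.3.3), with control features at weight 0 and outlier features left out. For a gene with several probes the one of highest mean Cy3 signal was used. Groups were compared with lmFit and eBayes, two-sided, over 37940 rows. No enzyme value was dropped. The fit was first run on simulated data with known changes, each larger than any enzyme difference of the main fit. That run therefore does not bear on differences of the size seen here. Members and lists were chosen with earlier results of these data known. Named were all members, pathway genes with an unadjusted p under 0.05 and always Tyms, Dhodh, Ppat, Pfas, Adsl and Phgdh, with Igf2 and tissue markers as checks; 1 pathway gene that meets the rule is not reported here, though counts include it. Alternatives covered background, normalization, probe choice, filters, test, block, sex label and each array left out. Mice were separate animals per the labels. Images were extracted in 1 day with all LOI(-) arrays before the LOI(+) arrays, so that order and group cannot be told apart.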

Additional observations from a re-analysis of the deposited data

How the results depend on the processing

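In each of the 20 alternatives 0 genes and unnamed probes passed an adjusted p of 0.05 in limma, with 1497 to 3345 at an unadjusted p under 0.05. The enzymes at that unadjusted level numbered 2 with the 4 mice labelled male and 2 with array weights, and 1 to 3 with 1 array left out. Over all rows the numbers were 1739 with the mice labelled male, 2505 with array weights and 2401 without LOI(-) 3, where the enzymes were 3. Mthfd1l, chosen for its low p, is in each of these enzyme counts, and nothing is read from them. The enzymes with a higher mean in LOI(+) numbered 4 to 6, Mthfd1l among them, beside 47.9% to 52.6% of all rows. The median difference over the enzymes, Mthfd1l included, ran from 0.019 to 0.22 with 1 array left out. Paics turned to 0.012 with median centring and to 0.035 in the mice labelled male, and ran from -0.21 to 0.046 with 1 array left out. Umps turned to -0.029 without background correction and to -0.037 with scale normalization, and ran from -0.038 to 0.039 with 1 array left out. Ppat turned to -0.010 and Igf2 to 0.0043 with scale normalization, and with 1 array left out Adsl ran from -0.0033 to 0.13 and Igf2 from -0.030 to 0.033. The cause was not tested. With the replicate number as a block, the enzyme differences kept their values. At an unadjusted p under 0.05 in limma there were then 1 enzyme, Mthfd1l, and 2461 rows. The deviations of same-numbered arrays from their group means correlated with r of -0.088, -0.25 and 0.35 for numbers 1, 2 and 3. Whether the numbers pair the mice cannot be told from these values, since their signs differ and the labels state no pairing. Aquantile normalization changes brightness only and left every ratio as it was.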
